A study of Mus musculus with 4 samples.

Results

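The genes described here encode the enzymes of the tricarboxylic acid (TCA) cycle, the pyruvate dehydrogenase complex with its kinases and phosphatase, and the carriers and cytosolic enzymes linked to them. They were chosen by symbol from the deposited table, and all 36 of the 36 listed symbols were found among its 26334 rows. The libraries were made from polyadenylated RNA of mouse spleen CD4+ T cells, isolated as naive cells and cultured for 5 days under conditions that favour T helper 1 (Th1) cells. There were 2 libraries of cells that received interleukin-16 (IL-16), a cytokine that binds CD4, and 2 of cells that received phosphate-buffered saline (PBS), its vehicle. No other treatment, genotype or strain is stated, and both groups share the Th1 conditions. The labels do not tie the libraries to separate mice or wells, so the spread behind the p-values may be technical.

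The cycle oxidises acetyl groups to carbon dioxide in the mitochondrial matrix and passes the electrons to the respiratory chain. Pyruvate from glycolysis enters the matrix through a carrier and is turned into acetyl-CoA by pyruvate dehydrogenase, which kinases switch off and phosphatases switch on. In activated T cells much pyruvate is also reduced to lactate, and citrate leaves the mitochondrion to supply cytosolic acetyl-CoA for lipid synthesis and histone acetylation.

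The authors' table names no unit, and its values were read as FPKM, a read-depth and transcript-length scaled unit. Levels are set side by side between genes on that reading, and the scaling by length was not checked. Library totals ran from 373924 to 388218 FPKM with IL-16 and from 385907 to 391153 FPKM with PBS. The number of reads behind them is unknown. The source labels name peritoneal macrophages, whereas the titles name Th1 cells. Summed over 17 T cell markers the level was 3353 and 3651 FPKM with IL-16, against 3132 and 3213 FPKM with PBS. Over 17 macrophage markers it was 5.23 and 6.40 FPKM with IL-16, against 4.92 and 5.64 FPKM with PBS, and 5 of them were listed at 0 in every library. The macrophage receptor gene Csf1r did not exceed 0.135 FPKM. Cd68, the highest of the macrophage markers, was 3.60 and 4.88 FPKM with IL-16, against 2.90 and 3.36 FPKM with PBS. Among listed markers of other cells, the highest values were 29.7 FPKM (Ly6g, neutrophil or mast), 17.7 (Klrd1, NK) and 7.86 (Cd8b1, CD8 T). For B and dendritic cells they were 2.13 (Cd79a) and 0.884 (Zbtb46). The sum over T cell markers was higher in both IL-16 libraries. Neither that difference nor its part in the levels of the metabolic genes was tested. In bulk RNA, fewer cells of a type and less RNA per cell cannot be told apart.

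With IL-16, transcripts of pyruvate entry and of the later steps of the cycle, from succinyl-CoA onward, mostly had lower mean levels. Most of those of the early steps, from citrate to succinyl-CoA, had higher ones. The log2 fold change was below 0 for 10 of 11, 7 of 9 and 2 of 6 of these members, and for 57.8% of all tested rows. Dld was counted with pyruvate entry, though it also serves an early step, and its mean level was lower. The 3 members with the largest relative differences were Fh1, which encodes fumarase, Mpc2, a subunit of the mitochondrial pyruvate carrier, and Sdhc, a membrane anchor of succinate dehydrogenase. Their mean levels with IL-16 were 0.651, 0.669 and 0.686 times those with PBS. No member passed the test across all rows. The test took the 11882 rows with a level of 1 FPKM or more in 2 or more libraries. Of the 36 members 35 were tested, and Me1 was not. In limma with Benjamini-Hochberg adjustment over all tested rows, 0 of the 35 had an adjusted p under 0.05, against 0.219% of all tested rows.

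At an unadjusted p under 0.05 there were 9 of the 35 members, or 25.7%, against 23.4% of all tested rows, so the share of members is near that of any genes. Of these 9, 8 were lower with IL-16, where 13.9% of all rows stood, and 1 was higher, where 9.59% stood. The log2 fold change, taken as IL-16 minus PBS on log2(FPKM + 1), was below 0 for 26 of 35 members and for 57.8% of all tested rows. Its median was -0.16 over the members and -0.045 over all tested rows, or -0.12 and -0.0037 after median-of-ratios scaling. Both IL-16 values lay below both PBS values in 18 members, against 34.8% of all rows, and above them in 6, against 24.1% of all rows.

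**Figure D1:**
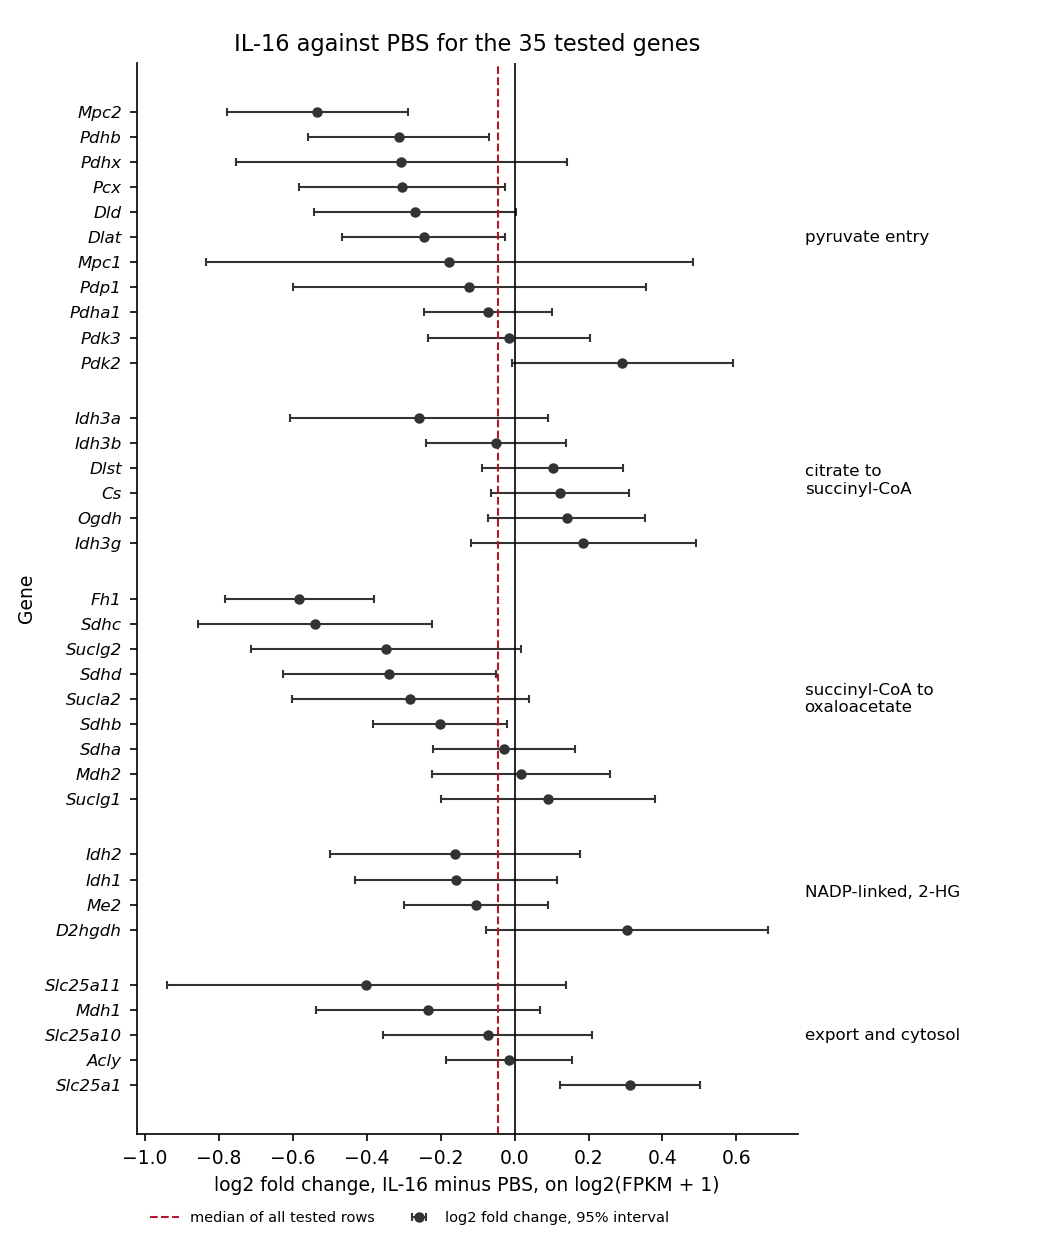
Log2 fold change of each of the 35 tested genes, IL-16 minus PBS on the log2(FPKM + 1) scale (x axis), with genes grouped by step (y axis). Points are limma estimates, bars their 95% intervals, and the dashed line is the median of all tested rows at -0.045. Fh1, Mpc2 and Sdhc lie farthest to the left and Slc25a1 farthest to the right.

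The promoters of Fh1 and Mpc2, the members with the smallest p-values, and of a pair of succinate dehydrogenase subunits are printed here, since Sdhd was lower with IL-16 in both libraries and Sdha was not. Each is the 250 bases before the annotated gene start, 5′ to 3′ on the strand of the gene, from RefSeq on GRCm38.p6. Capitals mark matches to any of the motifs searched on both strands, which were the NRF1 core GCGCATGC, the ETS motif CCGGAAG, the YY1 motif AAGATGGCG, the CCAAT box CCAAT, the GC box GGGCGG and the E-box CACGTG. These are motifs known from promoters of mitochondrial or growth-related genes.
Fh1 promoter (chr1:175625636-175625885, minus strand): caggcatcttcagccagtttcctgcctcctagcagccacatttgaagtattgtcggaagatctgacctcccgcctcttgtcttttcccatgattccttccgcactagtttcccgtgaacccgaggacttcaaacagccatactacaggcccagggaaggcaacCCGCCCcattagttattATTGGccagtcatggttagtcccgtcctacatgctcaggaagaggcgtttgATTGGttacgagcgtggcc
Mpc2 promoter (chr1:165461010-165461259, plus strand): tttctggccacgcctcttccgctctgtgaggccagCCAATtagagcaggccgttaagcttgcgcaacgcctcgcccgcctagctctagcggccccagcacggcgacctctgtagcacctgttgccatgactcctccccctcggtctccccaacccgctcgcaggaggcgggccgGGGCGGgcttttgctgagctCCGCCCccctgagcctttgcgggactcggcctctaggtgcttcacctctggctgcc
Sdhd promoter (chr9:50603850-50604099, minus strand): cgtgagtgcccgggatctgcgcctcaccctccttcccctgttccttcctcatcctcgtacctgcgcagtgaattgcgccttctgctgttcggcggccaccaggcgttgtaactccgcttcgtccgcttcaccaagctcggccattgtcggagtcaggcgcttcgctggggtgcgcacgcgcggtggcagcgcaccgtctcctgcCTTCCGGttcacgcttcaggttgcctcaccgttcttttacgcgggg
Sdha promoter (chr13:74350241-74350490, minus strand): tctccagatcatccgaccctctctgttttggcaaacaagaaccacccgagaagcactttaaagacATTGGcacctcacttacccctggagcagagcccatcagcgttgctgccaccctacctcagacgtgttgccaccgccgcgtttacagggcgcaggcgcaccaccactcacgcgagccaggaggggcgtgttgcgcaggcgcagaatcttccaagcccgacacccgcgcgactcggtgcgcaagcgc

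A promoter entry was found for 32 members, and in these no matches of different motifs shared a base. The CCAAT box was in 19 of the 32 (59.4%) and in 37.4% of the 8548 promoters of tested rows with an entry. The GC box was in 22 (68.8%) and in 60.5% of promoters of tested rows. The ETS motif was in 3 (9.38% against 15.7%), the E-box in 3 (9.38% against 8.68%), the NRF1 core in 1 (3.12% against 4.97%) and the YY1 motif in 1 (3.12% against 1.29%). Fh1 had 2 CCAAT boxes and 1 GC box, Mpc2 had 1 CCAAT box and 2 GC boxes, Sdhd had 1 ETS match and Sdha had 1 CCAAT box. Sdhb, not printed, was also lower in both IL-16 libraries. Like Sdha it had 1 CCAAT box, with 3 GC boxes and 1 NRF1 core besides. A match in these letters is not shown to be a site in use.

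Pyruvate entry held 11 members, of which 10 had a fold change below 0, with a median of -0.25. Mpc2 was 9.95 and 9.45 FPKM with IL-16, against 13.6 and 15.4 FPKM with PBS. Both IL-16 libraries were below both PBS libraries, and the log2 fold change was -0.53 (SE 0.097, limma adjusted p = 0.101). Its partner Mpc1, the other subunit of the same carrier, was 11.2 and 13.6 FPKM with IL-16, against 18.6 and 10.6 FPKM with PBS. The PBS libraries spanned the IL-16 values, so the groups overlap, and the interval of the Mpc1 difference ran from -0.84 to 0.48 on the log2 scale.

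The pyruvate dehydrogenase complex decarboxylates pyruvate with its alpha and beta subunits, moves the acetyl group with Dlat and reoxidises lipoate with Dld. Pdhb, the beta subunit, was 29.5 and 25.2 FPKM with IL-16, against 33.6 and 34.6 FPKM with PBS (log2 fold change -0.31, SE 0.097, limma adjusted p = 0.159). Pdha1, the alpha subunit, was 37.5 and 37.6 FPKM with IL-16, against 38.9 and 40.2 FPKM with PBS, a difference of -0.072 with an interval from -0.24 to 0.10. Neither subunit's groups overlapped. Dlat was 8.16 and 8.45 FPKM with IL-16, against 9.85 and 10.2 FPKM with PBS (log2 fold change -0.25, SE 0.087, limma adjusted p = 0.188). Dld, which also serves the oxoglutarate dehydrogenase complex, was 19.8 and 17.3 FPKM with IL-16, against 24.0 and 21.0 FPKM with PBS. Neither gene's groups overlapped. Pdhx, which ties Dld to the core, was the lowest of the complex, at 2.31 and 1.77 FPKM with IL-16 and 3.22 and 2.32 FPKM with PBS. A second row of the table, Pdhx-2, carried the Pdhx symbol at 1.27 to 1.37 FPKM.

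The kinase genes Pdk2 and Pdk3 encode inhibitors of the complex, and Pdk3 had the higher level. Pdk3 was 22.0 and 24.3 FPKM with IL-16, against 24.1 and 22.6 FPKM with PBS, and the groups overlapped. Pdk2 was 5.12 and 5.87 FPKM with IL-16, against 4.53 and 4.08 FPKM with PBS. Pdk2 was thus the sole entry gene that stood higher in both IL-16 libraries (log2 fold change 0.29, interval -0.0062 to 0.59, limma adjusted p = 0.218). The phosphatase gene Pdp1, which reactivates the complex, was 2.49 and 1.52 FPKM with IL-16, against 2.29 and 2.16 FPKM with PBS, and overlapped. Pcx, whose enzyme carboxylates pyruvate to oxaloacetate, was 10.2 and 8.56 FPKM with IL-16, against 11.5 and 12.1 FPKM with PBS (log2 fold change -0.30, limma adjusted p = 0.193).

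**Figure D2:**
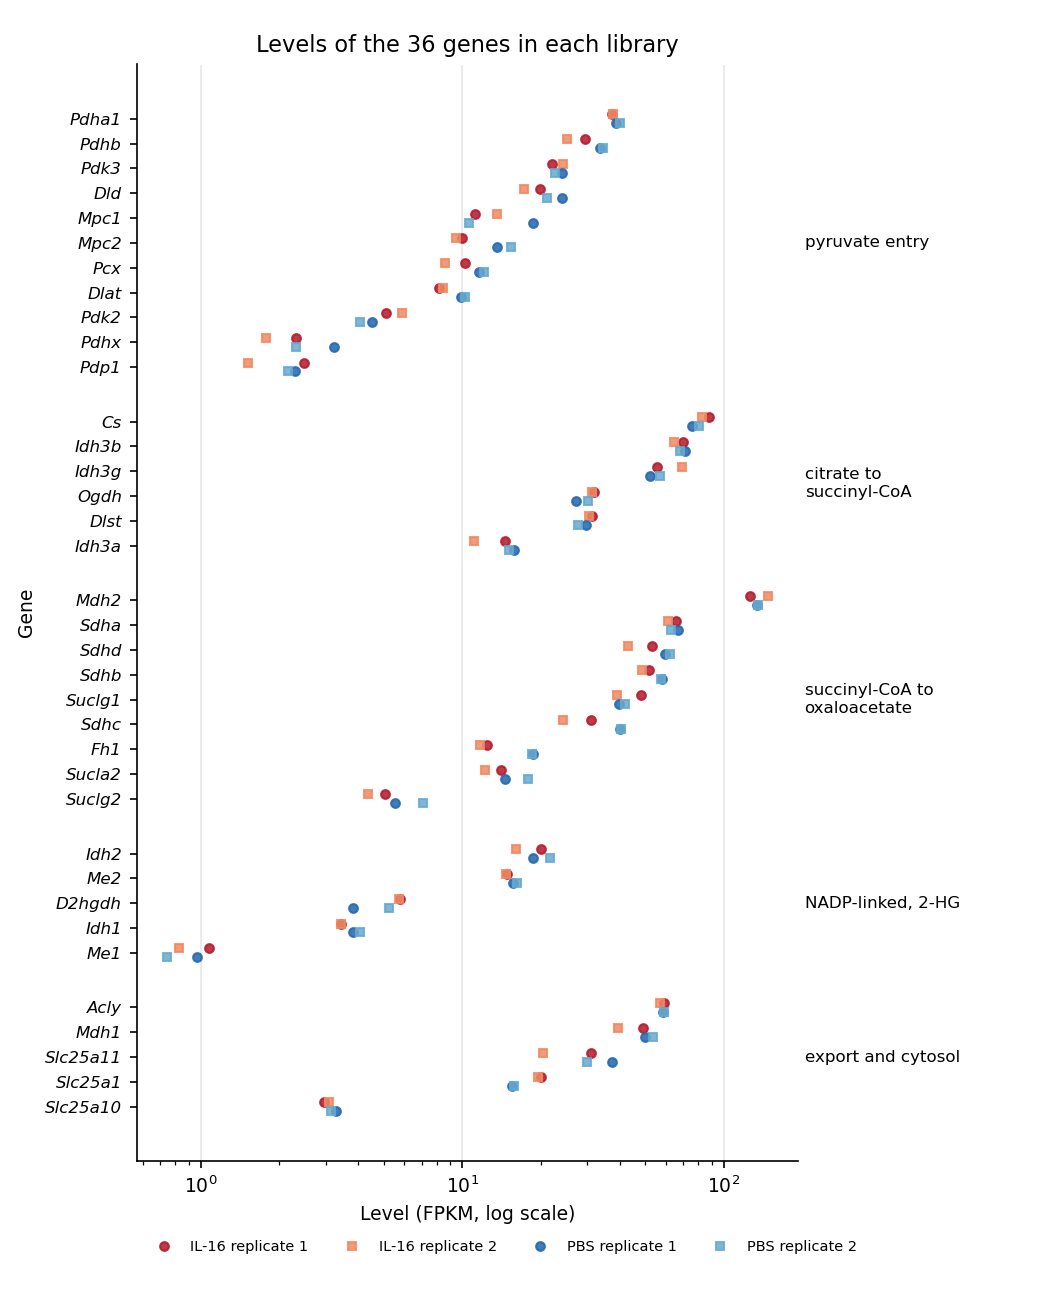
FPKM of the 36 genes on a log scale (x axis) in each library, with genes ordered within each step by mean level (y axis). Circles are replicate 1 and squares replicate 2, red and orange for IL-16 and blue for PBS. Mdh2 is highest at 126 to 147.5 FPKM and Me1 lowest at 0.740 to 1.07 FPKM.

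The early steps of the cycle, from citrate to succinyl-CoA, held 6 members with a median log2 fold change of 0.11, and 4 of them were above 0. Cs, citrate synthase, was 87.4 and 82.5 FPKM with IL-16, against 75.8 and 80.1 FPKM with PBS. Ogdh and Dlst, which form the oxoglutarate dehydrogenase complex with Dld, were likewise above PBS in both IL-16 libraries. Ogdh was 32.0 and 31.5 FPKM with IL-16, against 27.1 and 30.4 FPKM with PBS. Dlst was 31.4 and 30.4 FPKM with IL-16, against 29.7 and 27.8 FPKM with PBS. None of these differences exceeded 0.15 on the log2 scale, and their limma adjusted p ran from 0.352 to 0.439.

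Idh3a, Idh3b and Idh3g encode the catalytic and regulatory subunits of the NAD-dependent isocitrate dehydrogenase, and their levels, read as FPKM, were unequal. Idh3b was 69.7 and 64.7 FPKM with IL-16, against 71.0 and 68.2 FPKM with PBS. Idh3g was 55.8 and 69.1 FPKM with IL-16, against 52.2 and 56.9 FPKM with PBS. Both overlapped between groups. The catalytic subunit gene Idh3a had the lowest level, 14.6 and 11.1 FPKM with IL-16, against 15.8 and 15.0 FPKM with PBS, without overlap (log2 fold change -0.26, limma adjusted p = 0.310). With IL-16 replicate 2 left out the fold change was -0.077, and with the other IL-16 library left out it was -0.44. The ratio of Idh3b over Idh3a was 4.79 and 5.83 with IL-16 and 4.50 and 4.53 with PBS.

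The late steps, from succinyl-CoA to oxaloacetate, held 9 members with a median of -0.28, and 7 of them were below 0. Fh1 hydrates fumarate to malate. It was 12.4 and 11.7 FPKM with IL-16, against 18.7 and 18.4 FPKM with PBS, and the replicates of each group lay within 1 FPKM of each other. Its log2 fold change of -0.58 (SE 0.079, interval -0.78 to -0.38) was the largest in size of the members, and its limma adjusted p was 0.0686. Fh1 has no second row, and its log2 fold change stayed at -0.582 where rows sharing a symbol were summed. Its limma adjusted p in that fit, which called 1.11% of its rows, was 0.0379. In the other settings that kept every library it was between 0.0587 and 0.179. With 1 library left out, the Fh1 log2 fold change ran from -0.617 to -0.546. Mdh2, which makes oxaloacetate from malate in the next step, was the most abundant member. It was 126 and 147.5 FPKM with IL-16, against 134 and 136 FPKM with PBS, with overlap and an interval from -0.22 to 0.26.

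Succinate dehydrogenase joins the cycle to the respiratory chain. Sdha carries the flavin and Sdhb the iron-sulphur clusters, and both are anchored in the membrane by Sdhc and Sdhd. Sdha was 65.5 and 61.4 FPKM with IL-16, against 66.8 and 62.7 FPKM with PBS, and the groups overlapped, with a log2 fold change of -0.028 and an interval from -0.22 to 0.16. The other 3 subunits were lower in both IL-16 libraries. Sdhc was 31.0 and 24.3 FPKM with IL-16, against 40.2 and 40.5 FPKM with PBS (log2 fold change -0.54, SE 0.125, limma adjusted p = 0.117). Sdhd was 53.3 and 43.2 FPKM with IL-16, against 59.6 and 62.3 FPKM with PBS (log2 fold change -0.34, SE 0.114, limma adjusted p = 0.176). Sdhb was 52.0 and 48.5 FPKM with IL-16, against 58.2 and 57.6 FPKM with PBS (log2 fold change -0.20, SE 0.072, limma adjusted p = 0.189). For Sdhc the IL-16 libraries lay 0.34 apart on the log2 scale and the PBS libraries 0.011 apart.

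The succinyl-CoA synthetase genes encode a shared alpha subunit, Suclg1, and the beta subunits Sucla2, for the ATP-forming enzyme, and Suclg2, for the GTP-forming enzyme. Suclg1 was 48.4 and 39.2 FPKM with IL-16, against 39.9 and 41.9 FPKM with PBS, and overlapped. Sucla2 was 14.0 and 12.2 FPKM with IL-16, against 14.6 and 17.8 FPKM with PBS. Suclg2 was 5.07 and 4.37 FPKM with IL-16, against 5.55 and 7.06 FPKM with PBS. Both beta subunits were lower without overlap, at limma adjusted p of 0.253 and 0.226. The ATP-forming one was 2.77 and 2.80 times the other with IL-16, and 2.64 and 2.53 times with PBS.

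**Figure D3:**
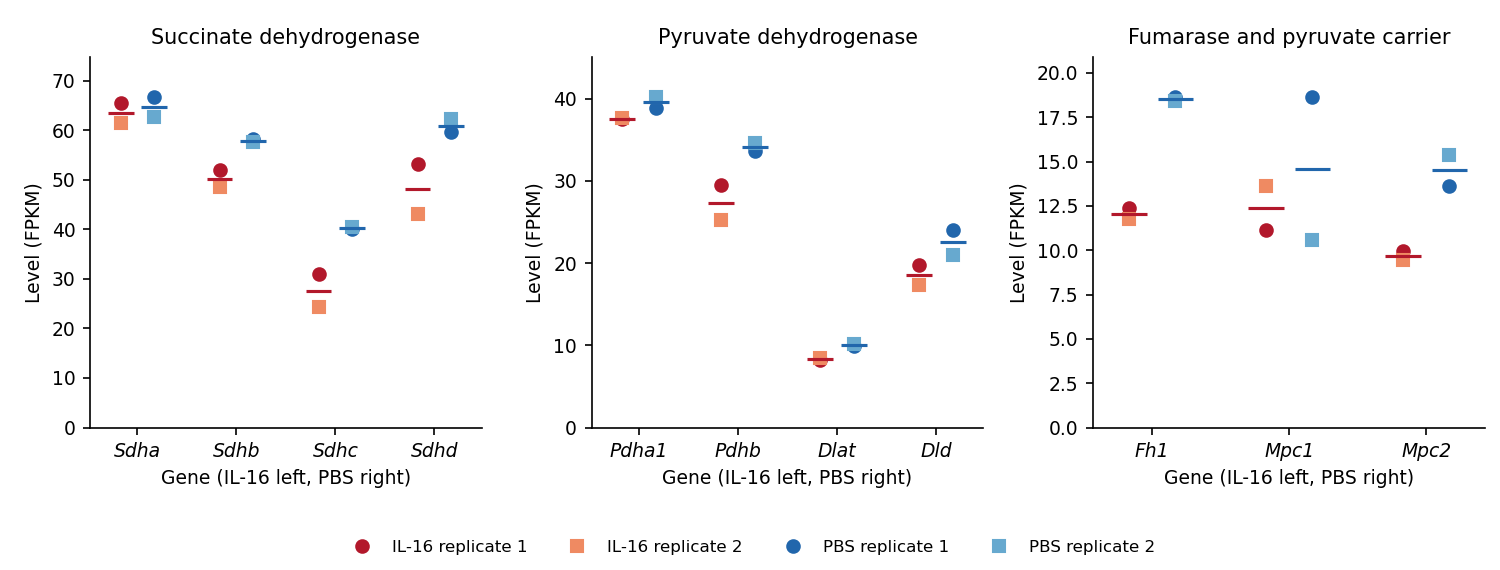
FPKM (y axis, from 0) of succinate dehydrogenase subunits, pyruvate dehydrogenase subunits, and fumarase with the pyruvate carrier (x axis), with IL-16 on the left and PBS on the right of each gene. Points are libraries and bars group means. Sdha overlaps between groups while Sdhb, Sdhc and Sdhd do not, and Mpc1 spans 10.6 to 18.6 FPKM with PBS.

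Subunits and isozymes were also set against each other within each library, as 9 ratios of FPKM. In 5 of them the groups did not overlap, and each of these had p = 0.33 in the exact permutation test over the 4 libraries (two-sided; 0.600 after adjustment over the 9). That is the smallest p that 2 libraries against 2 allow. Pdhb over Pdha1 was 0.786 and 0.670 with IL-16, against 0.864 and 0.861 with PBS. Sdhb over Sdha was 0.794 and 0.790 with IL-16, against 0.871 and 0.919 with PBS. Pdk3 over Pdk2 was 4.29 and 4.14 with IL-16, against 5.32 and 5.56 with PBS. Further ratios were chosen after the values were seen, and their groups did not overlap either. They were Sdhc over Sdha, Sdhd over Sdha, Idh3g over Idh3a and Fh1 over Mdh2. Of these, Sdhc over Sdha was 0.474 and 0.395 with IL-16, against 0.602 and 0.646 with PBS. Of the 9 ratios, those of Idh2 over Idh1, Mdh2 over Mdh1, Me2 over Me1 and Mpc2 over Mpc1 overlapped between groups.

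The NADP-linked enzymes supply reducing power. Idh2, the mitochondrial isocitrate dehydrogenase of this kind, was 19.9 and 16 FPKM with IL-16, against 18.6 and 21.6 FPKM with PBS, and overlapped. Its cytosolic counterpart Idh1 was lower in level and in both IL-16 libraries, at 3.43 FPKM in each, against 3.82 and 4.06 FPKM with PBS (log2 fold change -0.16, limma adjusted p = 0.411). The mitochondrial malic enzyme gene Me2 was 14.8 and 14.7 FPKM with IL-16, against 15.6 and 16.2 FPKM with PBS. The cytosolic malic enzyme gene Me1 was 1.07 and 0.826 FPKM with IL-16, against 0.964 and 0.740 FPKM with PBS, and reached the 1 FPKM needed in 1 library rather than 2, so it was not tested. D2hgdh, whose enzyme oxidises D-2-hydroxyglutarate to oxoglutarate, was 5.78 and 5.74 FPKM with IL-16, against 3.81 and 5.23 FPKM with PBS. Both IL-16 values were higher, but the PBS libraries lay farther apart than the nearer PBS value lay from the IL-16 values (log2 fold change 0.30, interval -0.078 to 0.69).

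Export to the cytosol held 5 members, 3 of them carriers. Acly, which splits exported citrate into acetyl-CoA and oxaloacetate, was 59.3 and 57.1 FPKM with IL-16, against 58.4 and 59.1 FPKM with PBS. The interval of its difference ran from -0.18 to 0.16 on the log2 scale. Mdh1, the cytosolic malate dehydrogenase, was 49.0 and 39.3 FPKM with IL-16, against 50.1 and 53.5 FPKM with PBS, with no overlap (log2 fold change -0.23, limma adjusted p = 0.295). Leaving out IL-16 replicate 2 gave -0.079, and leaving out the other IL-16 library gave -0.39. The dicarboxylate carrier gene Slc25a10 was 2.95 and 3.08 FPKM with IL-16, against 3.29 and 3.16 FPKM with PBS.

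The citrate carrier gene Slc25a1 was the 1 member higher with IL-16 at an unadjusted p under 0.05, and its difference depended on how rows were counted. The row itself was 19.9 and 19.5 FPKM with IL-16, against 15.5 and 15.8 FPKM with PBS (log2 fold change 0.31, SE 0.075, limma adjusted p = 0.119). A second row, Slc25a1-2, went the other way, at 12.5 and 12.7 FPKM with IL-16, against 15.3 and 15.2 FPKM with PBS (log2 fold change -0.26, limma adjusted p = 0.151). Summed, the 2 rows gave 32.4 and 32.2 FPKM with IL-16, against 30.9 and 31.0 FPKM with PBS. The log2 fold change of the sum was 0.059, with an interval from -0.11 to 0.23 (limma adjusted p = 0.624).

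The oxoglutarate and malate carrier gene Slc25a11 showed a trade between its rows within each group. Its row was 31.0 and 20.4 FPKM with IL-16, against 37.5 and 30.0 FPKM with PBS, and Slc25a11-2 was 11.5 and 19.6 FPKM with IL-16, against 5.92 and 14.3 FPKM with PBS. In each group the library with the lower first row had the higher second row. Their sum was 42.5 and 40.0 FPKM with IL-16, against 43.4 and 44.3 FPKM with PBS. The log2 fold change was -0.40 for the row and -0.086 for the sum (limma adjusted p = 0.311 and 0.485). What separates the rows of a symbol is not given in the sources used here.

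**Figure D4:**
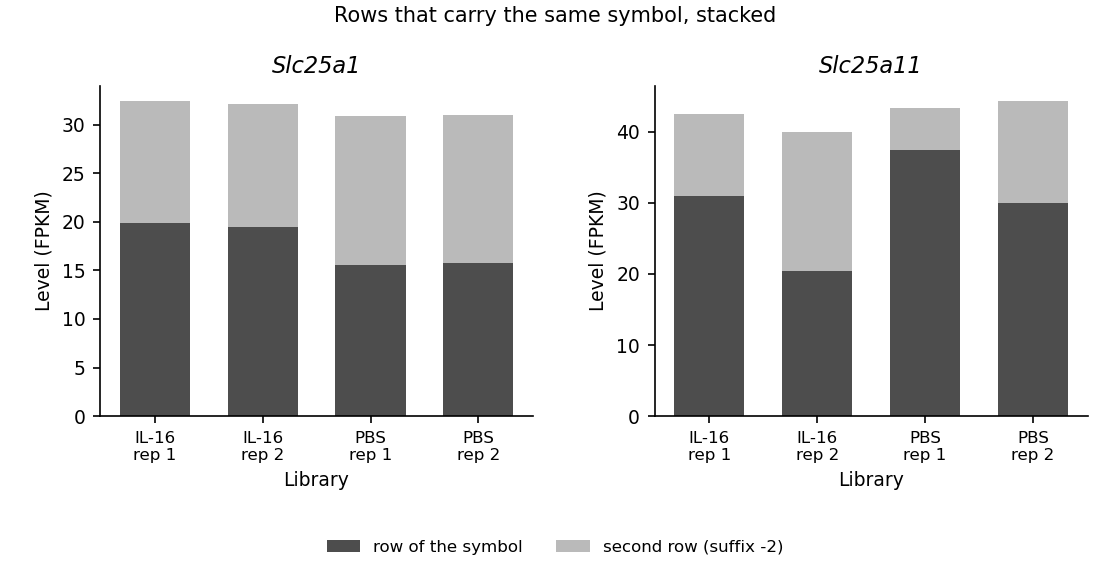
FPKM (y axis, from 0) of Slc25a1 and Slc25a11 in each library (x axis), stacked as the row of the symbol (dark) and the second row named after it (light). For Slc25a1 the dark part is taller with IL-16 while the whole bar spans 30.9 to 32.4 FPKM.

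The IL-16 libraries did not stand equally far from PBS. In 26 of the 35 tested members IL-16 replicate 2 was below IL-16 replicate 1, as it was in 58.3% of all tested rows. Relative to the PBS mean, the middle member lay at -0.093 in IL-16 replicate 1 and at -0.16 in replicate 2 on the log2 scale, and that of all tested rows was -0.019 and -0.063. Fh1 and Mpc2 were near equal in both, at -0.55 and -0.62 for Fh1 and -0.50 and -0.57 for Mpc2. Sdhc was at -0.37 and -0.71, and Slc25a11 at -0.11 and -0.69. Without IL-16 replicate 1, the fit lets the lone IL-16 library vary like the PBS libraries. The members' median log2 fold change was then -0.157, against -0.0626 over all tested rows. It was -0.71 for Sdhc, -0.49 for Sdhd, -0.42 for Pdhb, -0.42 for Pcx and 0.34 for Idh3g. Without IL-16 replicate 2 the members' median was -0.0932, against -0.0185 over all tested rows. The log2 fold change was then -0.37 for Sdhc, -0.19 for Sdhd, -0.20 for Pdhb, -0.19 for Pcx and 0.034 for Idh3g.

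**Figure D5:**
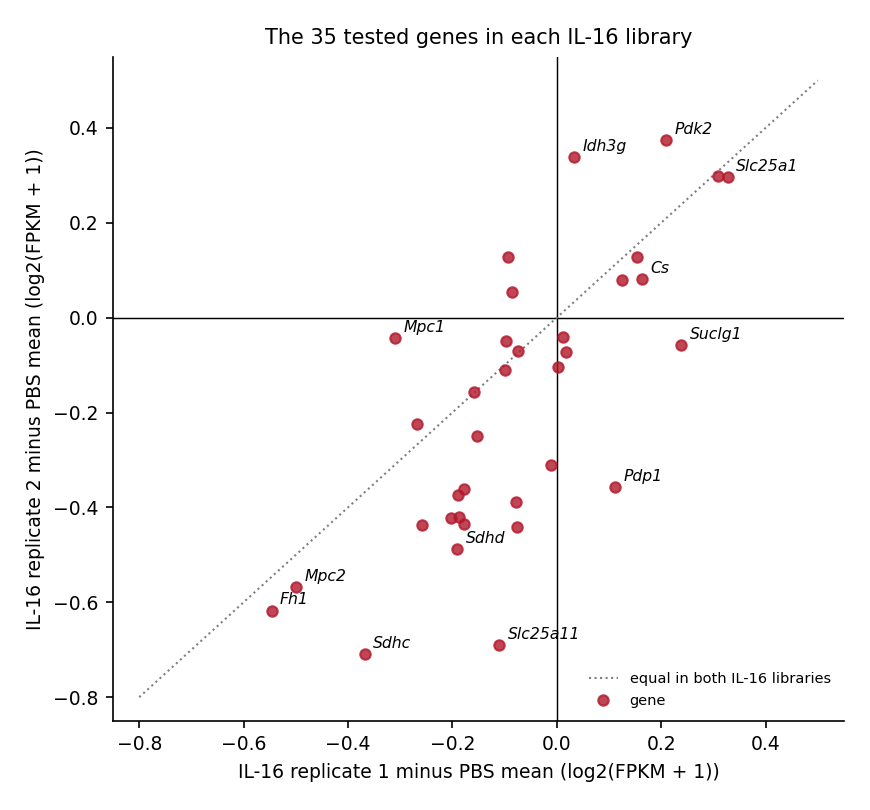
Difference of each tested gene from the PBS mean on log2(FPKM + 1) in IL-16 replicate 1 (x axis) and IL-16 replicate 2 (y axis). Each point is a gene and the dotted line marks equal differences. Fh1 and Mpc2 lie near the line, while Sdhc and Slc25a11 lie below it.

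Across the 35 tested members, the log2 fold change had a Spearman correlation of 0.080 with the length of the longest annotated coding transcript and of 0.36 with its GC content. Across the 10260 tested rows with a matching transcript these were 0.039 and 0.19. All points come from the same 4 libraries, and the part of base composition in the differences was not tested.

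Of 52 partner genes of the pathway, listed by role, 45 were tested and 0 passed in limma over all rows, where 0.219% passed. At an unadjusted p under 0.05, 15 were lower with IL-16 (13.9% of all rows were) and 2 were higher (9.59% were). Mrps36, which encodes a component of the oxoglutarate dehydrogenase complex, was 11 and 11.3 FPKM with IL-16, against 17.2 and 19.0 FPKM with PBS (log2 fold change -0.65, SE 0.088, limma adjusted p = 0.0686). Its groups did not overlap.

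Another 4 partners with small p were also lower in both IL-16 libraries. Oxct1, of ketone body use, was 20.7 and 18.7 FPKM with IL-16, against 26.9 and 24.7 FPKM with PBS. Glud1, which turns glutamate into oxoglutarate, was 75.7 and 67.8 FPKM with IL-16, against 87.5 and 90.3 FPKM with PBS. Slc16a1, a monocarboxylate carrier of the plasma membrane, was 12.4 and 9.60 FPKM with IL-16, against 16.2 and 15.2 FPKM with PBS. Pdk1, the most abundant pyruvate dehydrogenase kinase gene here, was 54.5 and 46.5 FPKM with IL-16, against 67.5 and 62.9 FPKM with PBS. Their limma adjusted p ran from 0.120 to 0.138. Pdk1 was lower while Pdk2 was higher and Pdk3 overlapped, and no test of the difference between these kinases was run. Pdk4 was at most 0.0777 FPKM in any library.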

How the data were processed

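Groups and replicate numbers come from the sample titles. The deposited table holds 1 value per row and library and names no unit. It was read as FPKM computed by the authors, since values are not whole and column totals are unequal. Per the submitters' processing notes, fastp, HISAT2 and featureCounts were used with GRCm39; versions and the tool behind the values are not stated. Low values were checked for steps of whole reads. At most 1.49% of the ratios of 2 libraries, taken over 1443 to 1614 rows under 0.2 FPKM, fell within any 0.5% window, so reads were not recovered.

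Rows with at least 1 FPKM in at least 2 libraries were fitted with limma 3.58.1 (R 4.3.3) on log2(FPKM + 1), with a mean-variance trend and no covariate, two-sided. P-values were adjusted by Benjamini-Hochberg over all 11882 rows, with a threshold of 0.05. Fold changes on this scale understate those of low genes. The fit was tested on simulated data. Alternatives changed the pseudocount, filter, scaling, summing of rows that share a symbol, trend or replicate block, or left out a library. The members and lists were chosen with earlier results of these data known. All members were named, with values in full for those with the smallest p, the highest levels and the listed pairs and complexes, as were the 6 partner genes with the smallest p, except 1 that is not reported here. RefSeq on GRCm38.p6, where 36 of 36 symbols matched, gave promoter sequences and their positions, which are not positions in the authors' build. Transcript lengths and GC content came from GENCODE vM21.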

Additional observations from a re-analysis of the deposited data

How the results depend on the processing

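The count of rows called across the table, 26, was 40 after rescaling to TPM, 53 after median-of-ratios scaling, 126 with rows of a symbol summed, 0 without the filter on low values, 0 in limma without the trend, and 9 to 2065 with 1 library left out. Members called numbered 0, 1 (Fh1) with rows summed, and 0 to 11 with 1 library left out. Members at an unadjusted p under 0.05 numbered 9 and ran from 5 to 17 with 1 library left out. The 17 arose without IL-16 replicate 1, where 36.5% of all rows stood, and the 5 without either PBS library, where 9.92% and 11.4% stood. The members' median log2 fold change was -0.0849 at a pseudocount of 5 and -0.157 to -0.0932 with 1 library left out. That of all rows ran from -0.0626 to -0.00366 over all alternatives, with -0.0223 after TPM and -0.0147 without the filter. The cause of these shifts was not tested. The highest count of rows called and the highest count of members called arose in the same fit. It left out IL-16 replicate 1 and so held a lone IL-16 library.

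Of 311 member values under the 9 settings that kept every library, 305 kept their direction and their side of the threshold. Acly turned to 0.0323 and 0.0135 and Pdk3 to 0.0298 and 0.0116 under median-of-ratios scaling and TPM, and Sdha to 0.0189 under median-of-ratios scaling. With 1 library left out, the value ran from -0.041 to 0.0123 for Acly, -0.086 to 0.0545 for Pdk3, -0.0729 to 0.0173 for Sdha, -0.558 to 0.204 for Mpc1, -0.105 to 0.00223 for Idh3b, -0.0583 to 0.238 for Suclg1, -0.0932 to 0.129 for Mdh2 and -0.356 to 0.112 for Pdp1. At a pseudocount of 5 the difference in log2 ratio, IL-16 minus PBS, changed sign for 2 pairs. It went from 0.0307 to -0.0483 for Idh2 over Idh1, and from 0.11 to -0.00887 for Sucla2 over Suclg2. With 1 library left out, Idh2 over Idh1 ran from -0.128 to 0.189, Mdh2 over Mdh1 from -0.0135 to 0.528 and Mpc2 over Mpc1 from -0.888 to 0.105. The stricter filter at 5 FPKM leaves out 4 tested members.

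The labels number the replicates and do not say whether same-numbered libraries are paired. Deviations of same-numbered libraries correlated at 0.00665 across rows, which with 2 libraries per group cannot settle whether they are. With the replicate block, 31 rows and 0 members were called, and the Fh1 difference was -0.582 (limma adjusted p = 0.0835). The read depth is unknown and each group has 2 libraries; the 95% interval of the difference included 0 for 26 of the 35 tested members.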
